A study of Gallus gallus with 4 samples.

Results

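The transcription units (TUs) described here have introns and yet consist almost wholly of exon. They come from the transcript assembly of chicken (Gallus gallus) oocytes at the lampbrush chromosome (LBC) stage, which lists 22884 TUs, each 1 gene of the assembler StringTie. They were chosen by measured values of this assembly, namely FPKM (fragments per kilobase of transcript, scaled to the size of the read pool) and the lengths of exons. The strongest transcript by FPKM stood for its TU, and the TU was taken when that transcript had 2 to 19 exons that together made up at least 90% of its span, introns included. TUs of more than 5 transcripts were left out, as were all those outside chromosomes 1 to 15 and 17 to 28. This rule gave 2006 almost all-exon TUs, 14.9% of the 13432 TUs that met its other conditions (95% Wilson interval 14.3 to 15.5). The remaining 11426 spliced TUs, with an exon share under 90%, are called comparison TUs below, and 5129 TUs of the same chromosomes with a single exon and at most 5 transcripts are called single-exon TUs.

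The 4 stranded poly(A) libraries of the series were made from wild-type oocytes of 1 to 2 mm diameter, 2 from single isolated nuclei and 2 from ooplasm, the cytoplasm of the oocyte. No agent was given to any of them. Reads were pooled, together with earlier total RNA of oocyte nuclei, before a single assembly was made for the forward and another for the reverse direction, and the source of a read is no longer known. Whether the ooplasm reads were part of this pool is not stated in the study's methods. No value has a replicate, nucleus and ooplasm could not be compared, and the depth of each library is unknown. Differences between groups of TUs are therefore described without tests. TUs are not replicates, and the intervals cover the counting of TUs in this assembly alone.

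At the lampbrush stage, the chromosomes of the growing oocyte carry lateral loops on which RNA polymerases follow each other closely, so that long nascent transcripts cover the loop axis. Introns are removed from nascent RNA by the spliceosome, which recognises a donor site at the 5′ end and an acceptor site at the 3′ end of the intron. RNA that has not yet been spliced still contains its introns, and an assembler that reads such RNA reports them as part of an exon. Exons here are stretches that the assembler called, and they need not be exons of a mature messenger RNA. The file pairs no TU with a gene symbol, so TUs carry their assembly names, with FORW for the forward and REV for the reverse run.

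Almost all-exon TUs were large blocks with a single interruption. The span had a median of 12.1 kb with quartiles of 5.42 and 25.02 kb, 1152 TUs (57.4%) reached 10 kb and 159 (7.93%) reached 50 kb. Comparison TUs had nearly the same median span, 12.7 kb, but their exons summed to a median of 3.66 kb against 11.8 kb. A total of 1635 almost all-exon TUs (81.5%) had 2 exons, 259 had 3 and 112 had 4 or more, whereas comparison TUs had a median of 6 exons. The longest exon of a TU took a median of 81.1% of the span and measured 9.40 kb, against 2.37 kb in comparison TUs and 4.25 kb in single-exon TUs. It reached 20 kb in 455 TUs (22.7%) and 50 kb in 85 (4.24%), with a maximum of 87.97 kb. Exon lengths follow in part from the rule, since it asks for exons that fill the span.

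The longest of these TUs were FORW.6631, REV.6714 and REV.6061, each with at least 1 intron of 150 bp or more. FORW.6631 on chromosome 9 (3693645 to 3823564, 130 kb) had exons of 36.5, 9.70, 7.90 and 70.3 kb with introns of 4518, 365 and 679 bp between them. REV.6061 on chromosome 7 (35546557 to 35672688, 126 kb) began with 7 exons of 89 to 866 bp and went on with exons of 80.5 and 39.0 kb, parted by an intron of 1732 bp. In REV.6714 on chromosome 9 (21740332 to 21867579, 127 kb) exons of 73.8, 44.1 and 4.29 kb were separated by introns of 4880 and 132 bp. The longest single intron of a 2-exon TU, 8550 bp, lay in FORW.2681 on chromosome 3 (7590780 to 7705563, 115 kb), followed by 6453 bp in REV.4882 on chromosome 5 (29452569 to 29524512, 71.9 kb). FPKM was low to moderate in these 5 TUs, from 1.38 in FORW.6631 to 3.09 in REV.4882.

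**Figure D1:**
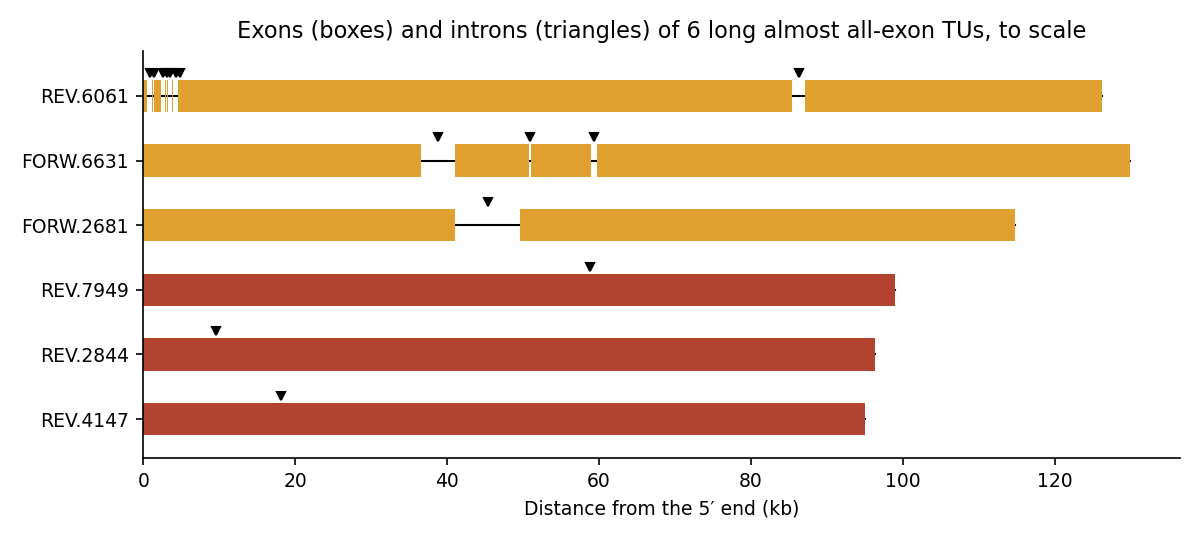
Exons (boxes) and the positions of introns (black triangles) of 6 long almost all-exon TUs, drawn to scale from the 5′ end, with distance in kb on the x axis. Only the representative transcript of each TU is drawn. Yellow TUs have an intron of 150 bp or more, and red TUs have 1 intron of 34, 23 or 28 bp, too narrow to be seen at this scale, so that exons look continuous over 98.9, 96.3 and 95.01 kb.

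The introns of almost all-exon TUs were few and short. Their representative transcripts held 2579 introns with a median length of 197 bp and quartiles of 93 and 558.5 bp, against a median of 832 bp for 67766 introns of comparison TUs. An exon share of 90% limits how long introns can be, so shorter introns are part of the rule. A 2-exon TU with an intron under 100 bp always meets it, because no transcript was shorter than 1000 bp, and the following shares are descriptions that the rule shaped. Introns of 70 to 149 bp made up 28.3% in almost all-exon and 11.5% in comparison TUs, and 316 introns (12.3%) of almost all-exon TUs reached 1 kb. Lengths of 20 to 29 bp made up 227 introns (8.80%) against 86 (0.127%) in comparison TUs. Counts fell from the lower edge, with 51 introns of 20 bp, 20 of 24 bp and 11 of 29 bp. Exactly 20 bp, the shortest length in the assembly, was the most frequent single length below 50 bp. It was so in comparison TUs as well, with 18 introns, and these had 39 introns of 30 to 49 bp. Between 50 and 69 bp almost all-exon TUs had only 53 introns. Lengths divisible by 3 were 33.7% in almost all-exon and 32.9% in comparison TUs.

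**Figure D2:**
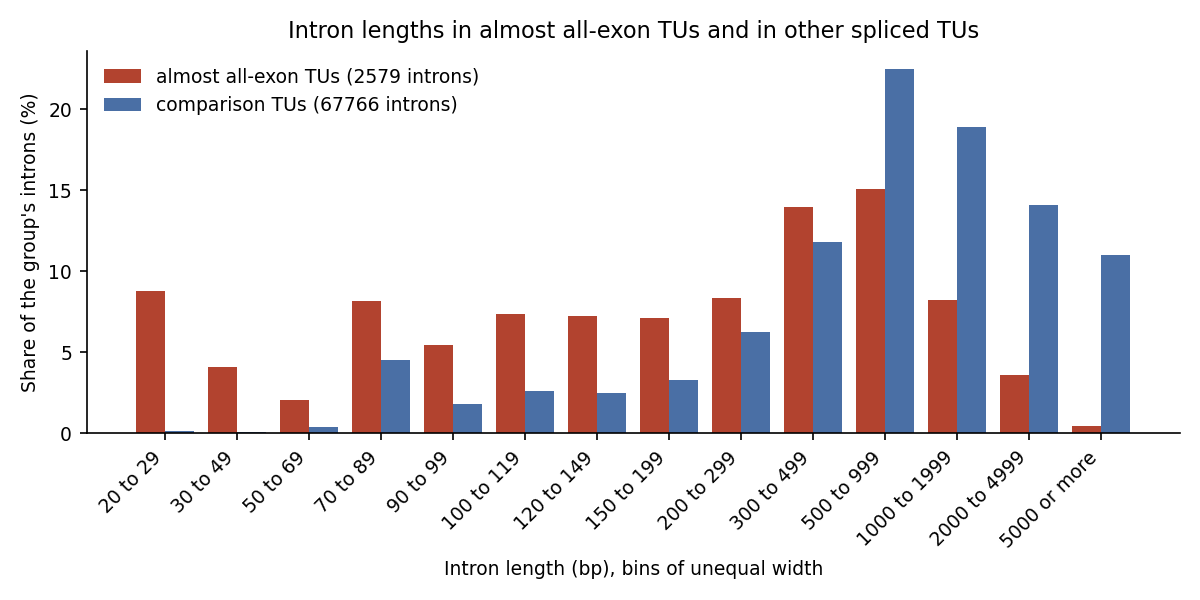
Share of introns (y axis, %) by length (x axis, bp, bins of unequal width) in the representative transcripts of almost all-exon TUs (red, 2579 introns) and comparison TUs (blue, 67766 introns). Red bars start at 8.80% in the bin of the shortest lengths, 20 to 29 bp, dip at 50 to 69 bp (2.06%) and then show a broad range. Blue bars are highest at 500 to 999 bp (22.5%).

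Introns lay more often in the 5′ part of the TU. In almost all-exon TUs the midpoint of an intron was a median of 22.9% of the span away from the 5′ end of the TU, and 898 introns (34.8%, interval 33.0 to 36.7) fell in the first 10% of the span, against 51.5% and 8.19% in comparison TUs. With 2 exons only, the median position was 20.7% in almost all-exon and 32.7% in comparison TUs. The first 50% of the span held 73.8% (interval 71.6 to 75.9) and 79.3% (77.6 to 80.9) of the introns. The rule shaped these positions too. In a 2-exon comparison TU the intron takes more than 10% of the span, so its midpoint cannot lie close to an end. The lowest position was 5.29% there and 0.311% in almost all-exon TUs of 2 exons. The first exon of almost all-exon TUs had a median of 1062 bp and the last exon one of 6583 bp. Both were longer than in comparison TUs, with medians of 277 and 1952.5 bp. In 756 TUs (37.7%) the first exon measured under 500 bp, whereas the last exon did so in 77 (3.84%). A first exon under 500 bp was more frequent in the other group, with 65.6% of comparison TUs and 57.1% of comparison TUs with 2 exons. In the latter, the first exon had a median of 342.5 bp and the last one of 2641 bp. An example is REV.1908 on chromosome 2, whose first 3 exons of 26, 69 and 67 bp were followed by an exon of 5820 bp.

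The TUs were split by intron length into 813 short-intron TUs (40.5%, interval 38.4 to 42.7), in which every intron was under 150 bp, and 1193 longer-intron TUs. Short-intron TUs were the smaller ones, their span being 6.85 kb in the median and that of longer-intron TUs 15.4 kb. This difference is in part set by the rule, since a longer intron passes an exon share of 90% only in a longer TU. A total of 751 short-intron TUs (92.4%) had 2 exons, against 884 longer-intron TUs (74.1%). Their longest members were REV.7949 on chromosome 14 (10528760 to 10627641, 98.9 kb), REV.2844 on chromosome 3 (34873848 to 34970107, 96.3 kb) and REV.4147 on chromosome 4 (56606394 to 56701407, 95.01 kb), with a single intron of 34, 23 and 28 bp. REV.2844 had another 2-exon transcript, of 118 kb, with an exon share of only 13.4% and nearly the same FPKM, 1.54 against 1.55. The short-intron TUs with most exons looked different from these long ones. FORW.9614 on chromosome 23 (6243227 to 6251256) had 8 exons in 8.03 kb with 7 introns of 77 to 139 bp, and FORW.6087 on chromosome 7 (21851179 to 21862426) had 7 exons with 6 introns of 77 to 128 bp. Among longer-intron TUs, FORW.9982 on chromosome 26 (2571601 to 2606004) had 10 exons, the most of all, with 8 exons of 65 to 500 bp and 2 of 14.4 and 15.4 kb.

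Short-intron TUs themselves consisted of 2 kinds, a division made after the lengths had been seen. In 255 TUs every intron was under 50 bp, with a median length of 25 bp, and in 558 at least 1 intron measured 50 to 149 bp, with a median of 98 bp over the introns of these TUs. TUs of the first kind had a median span of 13.8 kb, against 5.11 kb in the second. Their introns lay farther inside, at a median of 40.04% of the span against 21.3%, and only 30 of the 255 (11.8%) began with an exon under 500 bp, against 244 (43.7%). Read coverage of the representative transcript was similar over both exons in some of these TUs. REV.7949 had 8.93 reads per base over the first and 8.92 over the last exon. REV.9124 on chromosome 21 (864815 to 872411) had 65.1 and 72.9 on both sides of an intron of 20 bp. In REV.7915 on chromosome 14 (7477233 to 7481689), which also had an intron of 20 bp, it was 96.8 and 31.8.

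FPKM was moderate and rarely high. In the forward run, almost all-exon TUs had a median FPKM of 1.49, comparison TUs one of 3.90 and single-exon TUs one of 0.655. The corresponding medians of the reverse run were 1.55, 3.88 and 0.648. As a percentile among all TUs of the same run, the median was 43.7 with quartiles of 26.8 and 56.8, against 63.8 in comparison and 23.05 in single-exon TUs. Short-intron and longer-intron TUs had medians of 42.5 and 44.5. Only 23 almost all-exon TUs (1.15%) were at or above the 90th percentile, 17 of them short-intron TUs, compared with 15.7% of comparison TUs. The percentile under 10 held 197 TUs (9.82%). In each of the 27 chromosomes the median percentile of almost all-exon TUs was below that of comparison TUs and above that of single-exon TUs. FPKM entered the rule only to choose the representative transcript.

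Short-intron TUs of high FPKM were compact. FORW.8206 on chromosome 15 (560569 to 562414) had the highest FPKM, 76.1, with exons of 1555 and 143 bp and an intron of 148 bp, although the strand given to it by the assembler is opposite to its run. FORW.9398 on chromosome 21 (6533348 to 6534543; FPKM 63.6, intron of 84 bp) and FORW.7559 on chromosome 12 (9767266 to 9771692; FPKM 55.9, intron of 96 bp) followed in the forward run. In the reverse run REV.10038 on chromosome 27 (5756305 to 5762194) had an FPKM of 73.7 with an intron of 75 bp, REV.632 on chromosome 1 (78607242 to 78609104) had 61.5 with 140 bp and REV.7316 on chromosome 12 (3471539 to 3472874) had 51.8 with 77 bp. The spans of these 6 TUs ranged from 1196 bp to 5.89 kb, each had a single transcript, and no intron was under 70 bp. Several lay close behind a strong spliced TU of their run. By the direction of the run, FORW.8206 began 30 bp after FORW.8205 (FPKM 97.0), but on the strand given by the assembler its 3′ end lay there. FORW.7559 began 383 bp after FORW.7558 (30.9). REV.10038 began 1019 bp after REV.10039 (60.3) and REV.7316 1386 bp after REV.7317 (181.7). For FORW.9398 and REV.632 the nearest upstream TU was 23.7 and 26.2 kb away.

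Longer-intron TUs reached such levels less often and mainly in the reverse run. REV.8880 lay near the start of chromosome 20 (12907 to 18779) with an FPKM of 67.1 and introns of 363 and 209 bp, REV.2456 on chromosome 2 (138704790 to 138711502) had 41.4 and REV.6076 near the start of chromosome 8 (52072 to 54948) had 35.6. The highest of the forward run were FORW.1756 on chromosome 2 (26742383 to 26745591; FPKM 20.6), FORW.4697 on chromosome 5 (440432 to 443506; FPKM 17.3) and FORW.8523 on chromosome 17 (3004795 to 3017367; FPKM 17.2). A weaker TU of the other run overlapped all 6 of them, with an FPKM of at most 10.7.

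The level of almost all-exon TUs changed with span. Under 2 kb the median percentile was 27.02, close to 25.9 in comparison TUs of that span, and from 2 to 5 kb it was 26.9 against 49.8. For spans of 10 to 20 kb it was 47.1 against 68.1, and for spans from 50 kb upwards 44.1 against 61.7. In every bin of span single-exon TUs were lower, with 35.7 and 41.2 in these last groups. The quartiles of almost all-exon TUs also drew together with span, from 3.39 and 57.7 under 2 kb to 36.95 and 50.1 from 50 kb upwards. TUs with a single exon had needed a higher coverage to be assembled than spliced ones, 3.5 against 1.2 reads per base.

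**Figure D3:**
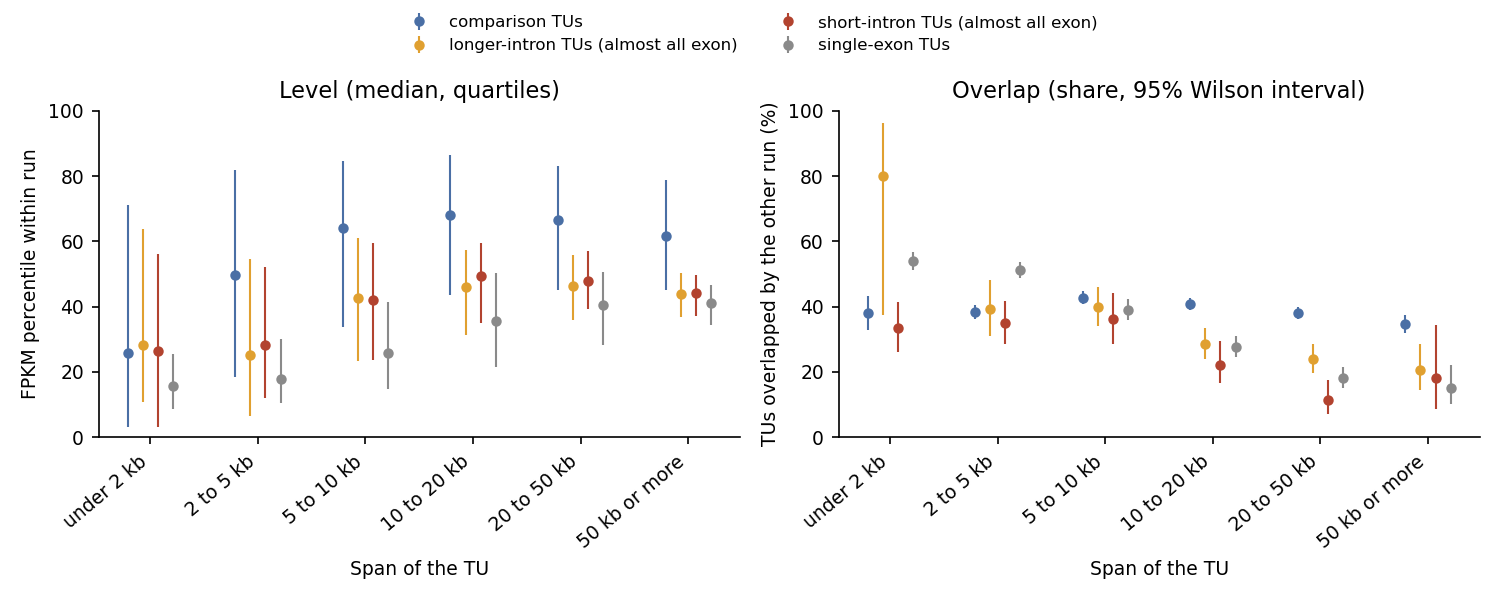
The left panel plots the FPKM percentile within the run (y axis, points are medians and lines reach the quartiles) and the right panel the share of TUs overlapped by a TU of the other run (y axis in %, lines are 95% Wilson intervals), both by span of the TU on the x axis. Short-intron (red) and longer-intron TUs (yellow) lie between comparison (blue) and single-exon TUs (grey) in level from 5 kb on. Between 20 and 50 kb overlap falls to 20.2% of all almost all-exon TUs and 18.1% of single-exon TUs, against 38.0% of comparison TUs.

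The order of the groups turned when only TUs of 2 exons were compared. Among these, 1635 almost all-exon TUs had a median percentile of 43.6 and 2308 comparison TUs one of 35.6. Almost all-exon TUs of 2 exons were higher in every bin of span, with 25.4 against 13.8 under 2 kb, 46.6 against 43.7 for 10 to 20 kb and 44.5 against 38.4 from 50 kb upwards. They were also higher in 22 of 27 chromosomes. With 3 exons the medians were 43.3 and 44.7. With 4 or more exons they were 45.3 in 112 almost all-exon TUs and 73.4 in 7728 comparison TUs, which made up 67.6% of the comparison group. Nearly the same median was thus found in almost all-exon TUs of 2, 3 and more exons, whereas comparison TUs rose with exon number.

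**Figure D4:**
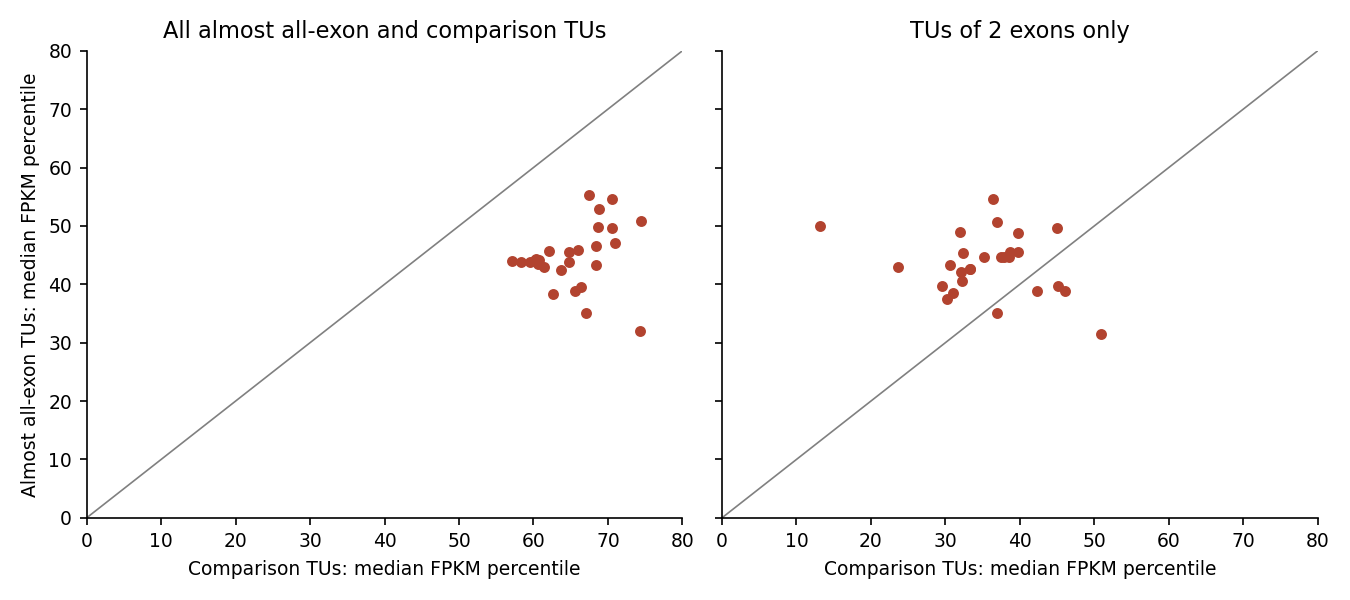
Each point is 1 of 27 chromosomes, with the median FPKM percentile of comparison TUs on the x axis and of almost all-exon TUs on the y axis; the grey line marks equal medians. All points lie below the line when every TU is used (left), and 22 of 27 lie above it when TUs of 2 exons alone are compared (right).

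Coverage, as the assembler gave it for the exons of the representative transcript, was mostly higher at the start of the TU. In the 1019 almost all-exon TUs with 2 to 5 transcripts, these values need not be all reads over an exon. The first exon had the higher coverage, in reads per base of that transcript, in 1280 almost all-exon TUs (63.8%, interval 61.7 to 65.9). The share was 40.8% in comparison TUs. The log2 ratio of coverage, last over first exon, had a median of -0.41 against 0.36. In TUs of 2 exons the medians were -0.36 and -0.13, and the first exon was the higher one in 62.7% (interval 60.3 to 65.003) and 53.9% (51.8 to 55.9). It was lowest in the 255 TUs with introns under 50 bp, with a median of -0.61, where 202 (79.2%) had the higher coverage in the first exon. Steps between exons were seen in long TUs, as in REV.2844, with 43.6 reads per base over the first 9.58 kb and 13.3 over the next 86.7 kb. FORW.6631 rose from 22.7 in its first to 42.8 in its second exon and then fell to 18.1 and 6.25. REV.6714 had 35.7, 13.8 and 8.56. A larger one was found in FORW.7614 on chromosome 12, from 89.3 over its first 4.97 kb to 2.15 over the next 17.0 kb. FORW.6631 and FORW.7614 had 5 transcripts, REV.2844 had 3 and REV.6714 had 2. Whether these steps came from the division of reads among transcripts was not tested. A small first exon went with either direction. The first exon was the higher one in 429 of 756 TUs (56.7%, interval 53.2 to 60.2) whose first exon measured under 500 bp, and in 851 of 1250 (68.1%, interval 65.4 to 70.6) of the others. FORW.7559 had 115 reads per base over 52 bp and 599 over 4279 bp, and FORW.4697 had 8.35 over 422 bp and 214 over 2415 bp, whereas REV.7316 had 805 over 249 bp and 480.4 over 1010 bp.

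More heavily spliced isoforms were frequent. Of 1019 almost all-exon TUs with 2 to 5 transcripts, 688 (67.5%, interval 64.6 to 70.3) had at least 1 transcript with more introns than the representative, compared with 43.7% of 5349 comparison TUs. At equal numbers of transcripts the shares were 47.9% against 29.2% for 2 and 78.9% against 50.4% for 3. Among TUs of 2 exons the shares were close, 72.7% (interval 69.3 to 75.7) in almost all-exon and 69.5% (65.9 to 72.8) in comparison TUs. The richest isoform of the 688 TUs added a median of 1 intron, as in comparison TUs. It added 5 or more in 69 of them, against 359 of 2340 comparison TUs. All introns of the representative were kept in 488 (70.9%), against 57.2%. Its FPKM was a median of 33.05% of that of the representative, against 37.0%. The added introns had a median of 1507.5 bp, against 1111 bp, and the richest isoform had a median exon share of 61.6%. In 566 of the 688 (82.3%) this share was under 90%. The rule shaped intron lengths and exon shares here, since a representative of at least 90% exon has little room for long introns.

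**Figure D5:**
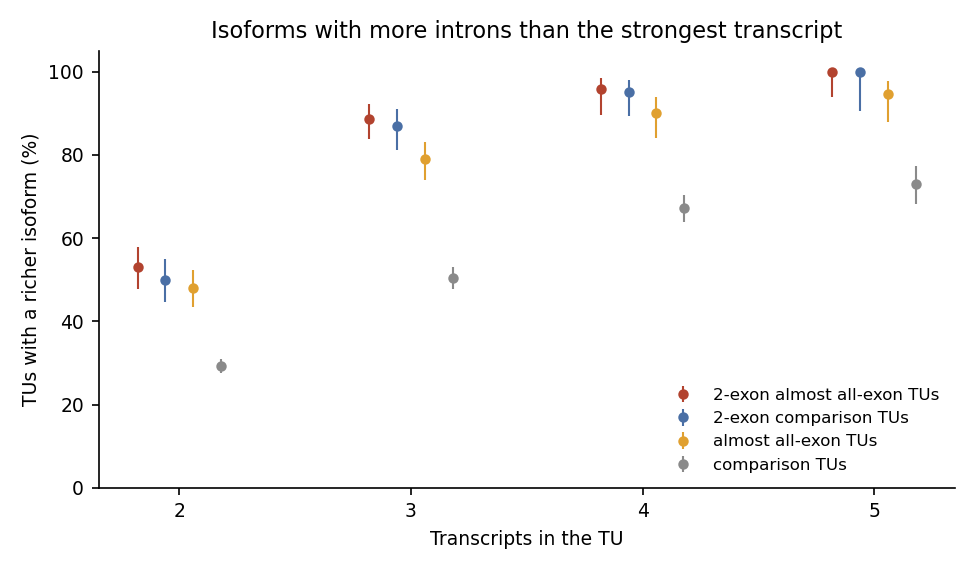
Share of TUs (y axis, %, lines are 95% Wilson intervals) in which some transcript has more introns than the transcript with the highest FPKM, by number of transcripts (x axis). Almost all-exon TUs (yellow) lie above comparison TUs (grey), while the intervals overlap when TUs of 2 exons alone are taken (red and blue).

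The richest isoform usually kept the start of the TU. It began at the same base as the representative in 601 of 688 TUs (87.4%, interval 84.7 to 89.6), compared with 77.9% (76.2 to 79.6) in comparison TUs. It ran past the 3′ end alone in 193 (28.1%), close to the 26.4% of comparison TUs. Past the 5′ end alone it ran in 44 (6.40%), against 14.1%. In 106 TUs (15.4%) it was at least 2 times as long, and in 15.1% of comparison TUs. REV.4147 had the most added introns among the TUs named here. Its representative of 95.01 kb with an intron of 28 bp and an FPKM of 2.17 shared its 5′ end with a transcript of 331 kb and 43 exons, whose exons filled 5.67% of the span and whose FPKM was 0.824. FORW.3055 on chromosome 3 had a representative of 9.98 kb with an intron of 486 bp and an FPKM of 3.44, beside a transcript of 145 kb with 22 exons, the same start and an FPKM of 1.68. In FORW.7614 on chromosome 12 the 3′ end was shared instead, since its representative (12481631 to 12504760; FPKM 2.06) covered the last 23.1 kb of transcripts of 64.6 kb with 22 to 24 exons. A TU can therefore be almost all exon by its strongest transcript and richly spliced by another one.

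Upstream neighbours of the same run were about as near as for comparison TUs, whereas downstream neighbours lay farther away. The nearest non-overlapping TU upstream lay a median of 19.9 kb away, against 18.7 kb for comparison and 38.5 kb for single-exon TUs, and the nearest downstream 24.5 kb, against 18.6 and 35.4 kb. In TUs of 2 exons the downstream medians were 26.7 and 22.7 kb. For TUs with every intron under 50 bp the downstream median was 44.1 kb. An upstream TU within 5 kb was found for 437 almost all-exon TUs (21.8%, interval 20.03 to 23.6) and for 24.5% of comparison TUs. Of these neighbours, 355 of 437 were spliced, and 2405 of 2805 for comparison TUs. The upstream neighbour was itself almost all exon in 276 of 1999 cases (13.8%, interval 12.4 to 15.4), and the downstream neighbour in 275 of 1992 (13.8%), compared with 8.70% and 8.92% for comparison TUs and 13.8% and 11.6% upstream for TUs of 2 exons in both groups.

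Overlap with the other run was less frequent than in comparison TUs as a whole. Partners of any FPKM and overlaps of any length were counted. A TU of the other run overlapped 582 almost all-exon TUs (29.01%, interval 27.1 to 31.04), compared with 39.4% of comparison TUs, and the share was lower in 24 of 27 chromosomes. Between 2 and 5 kb the shares were 36.5% and 38.3%, and between 20 and 50 kb they were 20.2% (interval 16.9 to 23.9) and 38.0% (36.1 to 39.8). Single-exon TUs of 20 to 50 kb had a share of 18.1%, so that low overlap at this span was not particular to almost all-exon TUs. With 2 exons only, the overall shares were 28.5% (interval 26.4 to 30.7) and 26.9% (25.1 to 28.8), with intervals that overlap. Under 2 kb these 2-exon shares were 36.8% and 27.3%, and from 2 to 5 kb 37.2% and 26.5%. Between 20 and 50 kb they were 16.7% and 20.4%. The largest overlap was head-to-head, with 5′ ends facing each other, in 225 almost all-exon TUs, and tail-to-tail in 158, while 111 lay inside a TU of the other run and 88 contained one. In comparison TUs head-to-head and tail-to-tail overlaps were about equal, 1460 and 1494. Single-exon TUs also had more head-to-head than tail-to-tail overlaps, 789 and 341. The partner had the higher percentile in 355 of the 582 (61.0%), against 39.8% in comparison and 86.0% in single-exon TUs. In the 255 TUs with introns under 50 bp, overlap was found in 34 (13.3%, interval 9.70 to 18.05).

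Ends of the other run also differed in distance. A 5′ end of the other run lay within 1 kb of the 5′ end in 292 almost all-exon TUs (14.6%) and in 21.5% of comparison TUs, and a 3′ end within 1 kb of the 3′ end in 63 (3.14%) and 8.85%. In TUs of 2 exons the shares were 14.7% and 13.0% for 5′ ends and 3.30% and 4.25% for 3′ ends. Among named TUs, FORW.7559 overlapped the single-exon TU REV.7390 (FPKM 0.948) by 2317 bp head-to-head, and REV.632 shared 180 bp at its 5′ end with FORW.660, a TU of 31 exons and an FPKM of 15.3. FORW.9614 overlapped REV.9482, of 11 exons and an FPKM of 66.7, by 5086 bp tail-to-tail, and had itself an FPKM of 0.941. Almost all-exon TUs of both runs overlapped each other in 32 pairs. The pair whose weaker TU had the highest FPKM was FORW.8503 (4148364 to 4153077; FPKM 5.36) inside REV.8370 (4145441 to 4161182; FPKM 2.201) on chromosome 17.

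The limit of 90% cut through a continuous range. Just above it were REV.1908 (90.01%, FPKM 0.944), FORW.8108 (90.04%, FPKM 4.61) and FORW.5588 (90.04%, FPKM 1.95), and just below it REV.4973 (89.99%, FPKM 0.495), REV.5096 (89.98%, FPKM 3.45) and FORW.5439 (89.96%, FPKM 0.765). The 543 TUs with an exon share of 85 to 90% had a median percentile of 43.01 and a median span of 7.71 kb. From 90 to 95% the medians were 39.8 and 8.34 kb in 725 TUs, from 95 to 99% they were 43.9 and 11.2 kb in 829, and from 99 to 100% they were 46.4 and 20.7 kb in 452 TUs.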

How the data were processed

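The transcript assembly that the authors deposited was analysed. It was made from stranded poly(A) RNA-seq of the study pooled with earlier total RNA-seq of oocyte nuclei. According to the study's methods, adapters were cut with cutadapt, reads were aligned with HISAT2 to ASM2420605v2, split by direction with SAMtools, freed of duplicates and merged over all experiments. Whether ooplasm reads were included is not stated there. Per the file headers, StringTie 2.2.2 was run for each direction with thresholds of 1.2 reads per base for spliced and 3.5 for single-exon transcripts, an isoform fraction of 0.05, 5 reads per junction with an anchor of 10 bp, a length of 1000 bp and a gap of 300 bp. The deposited FPKM, TPM and coverage signal are values of the pool. An FPKM of 1 stood for 10.6 reads per base (forward run) or 10.5 (reverse run).

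Exons, introns and neighbours were computed with Python 3.11.15, pandas 2.3.3 and NumPy 2.4.6, and checked on simulated data. Direction was that of the run, neighbours had any span, and positions are 1-based. No value was log-transformed for a test and none was filtered. The TUs and lists were chosen with earlier results of these data known. TUs were named by a fixed rule: per intron class, the 3 highest FPKM of each run, the 3 longest and the 2 with most exons; and over all, extreme single introns, the most transcripts with the largest gain of introns, the TUs next to 90% and the strongest overlapping pair. Alternatives changed the exon share, the representative transcript, the number of transcripts, the minimum FPKM and span, the source of direction, the run and the intron limit. Sequences and splice sites were not analysed here, as no genome of the build was used.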

Additional observations from a re-analysis of the deposited data

How the results depend on the processing

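No paired analysis was possible because all reads were pooled before assembly, and for the same reason no library could be left out. Medians and shares are compared below with the 95% interval of the reported value, and 43 of 82 recomputed values stayed inside it or, for numbers of TUs, within 1.5 times. Some of the 82 outcomes were set by the choice itself, such as the number of TUs in 1 run or the share under another intron limit. The count is therefore no measure of stability. The number of almost all-exon TUs moved from 2006 to 3104 with an exon share of at least 80%, to 1281 with 95%, to 987 with single-transcript TUs, to 764 at or above the median FPKM of the run, and to 1016 and 990 in the forward and reverse run alone. The share of short-intron TUs was 27.8% with an exon share of 80%, 52.0% with 95%, 50.8% with single-transcript TUs and 31.1% from 5 kb on. It was 25.8% with an intron limit of 100 bp and 55.4% with 300 bp. The median intron had 315 bp with 80%, 129.5 bp with 95%, 137 bp with single-transcript TUs and 288 bp from 5 kb on. Without TUs whose every intron was under 50 bp, an alternative chosen after seeing the data, the share of short-intron TUs was 31.9%, the median intron 253 bp and the share overlapped by the other run 31.3%. The median span was 10.6 kb with 80%, 14.3 kb with 95%, 11.4 kb with the longest transcript as representative, 7.12 kb with single-transcript TUs, 13.03 kb at or above the median FPKM and 16.5 kb from 5 kb on. The median FPKM percentile was 45.2 with 95%, 45.02 with the longest transcript, 35.9 with single-transcript TUs, 45.7 from 5 kb on and 60.6 for TUs at or above the median FPKM, a choice that itself cuts off the low percentiles. It stayed below that of comparison TUs chosen in the same way in the 8 settings where both were computed, for example 35.9 against 61.6 with single-transcript TUs, 45.02 against 61.7 with the longest transcript and 60.6 against 78.3 at or above the median FPKM. None of these 8 settings held the number of exons fixed. With 2 exons only the order was reversed, 43.6 against 35.6, and with 3 exons the medians were 43.3 and 44.7. TUs with a richer isoform are counted here over all almost all-exon TUs, single-transcript ones included, of which they made up 34.3% (interval 32.3 to 36.4). This share was 29.3% with the longest transcript, 40.6% at or above the median FPKM and 40.8% from 5 kb on. It was 0% with single-transcript TUs, where none can exist. The share overlapped by the other run was 26.3% with 95%, 32.9% with the longest transcript and 26.95% from 5 kb on. The upstream gap was 17.6 kb with the longest transcript and 18.2 kb with single-transcript TUs. Of the 2006 TUs, 1676 (83.5%) were also found with the longest transcript as representative. The causes of these shifts were not tested beyond what each choice leaves out.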

Other observations

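Some almost all-exon TUs lay inside a larger TU of their own run. This was so for 58 of 2006 (2.89%, interval 2.24 to 3.72), against 0.604% of comparison TUs. All 58 hosts were spliced, as were the hosts of 68 of the 69 comparison TUs inside another TU. Such a place was not particular to almost all-exon TUs, since 109 of 5129 single-exon TUs (2.13%, interval 1.76 to 2.56) also lay inside a spliced TU of their run. The TUs with every intron under 50 bp, a class formed after the lengths had been seen, contributed 29 of the 58, which is 11.4% of that class (interval 8.04 to 15.9). The host had the higher percentile in 19 of these 29. In 20 almost all-exon TUs (1.00%) the assembler had assigned the strand opposite to the run, compared with 3.34% of comparison TUs. All 20 were short-intron TUs, and in 11 of them every intron was under 50 bp.

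The same intron, by start and end, was found in the other run for 19 of 2579 introns (0.737%) of almost all-exon and for 5.44% of the introns of comparison TUs. This difference was not seen in TUs of 2 exons. There the shares were 1.04% (interval 0.650 to 1.66) and 0.607% (0.362 to 1.02), with intervals that overlap. Almost all-exon TUs made up 15.6% of eligible spliced TUs (interval 14.8 to 16.5) on chromosomes 1 to 5 and 14.3% (13.4 to 15.1) on the 22 smaller ones, with a median span of 13.7 kb on the former and 10.4 kb on the latter. The share ranged from 7.89% on chromosome 28 to 18.98% on chromosome 4. Whether introns under 50 bp have donor and acceptor sites was not analysed here.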
